A study of Mus musculus with 15 samples.

Results

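The 8 genes described here encode the enzymes that write, maintain and remove DNA methylation in mouse cells. They are the methyltransferases Dnmt1, Dnmt3a and Dnmt3b, the maintenance factor Uhrf1, the dioxygenases Tet1, Tet2 and Tet3, and the glycosylase Tdg. They were chosen by symbol, and each matched 1 of the 53380 features in the count tables. The cells were cultured mouse leukemia cells of the T lineage (T-ALL), taken from a tumor that arose in EμSRα-tTA/tet-O-MYC mice. In this model a tetracycline transactivator under a lymphoid promoter and enhancer drives a human MYC transgene, and doxycycline switches it off. The cells of all 15 libraries carry both transgenes. The 3 libraries at 0 h were mock treated (MYC on), and 3 each were collected 2, 4, 8 and 24 h after doxycycline, with no doxycycline-treated control lacking the transgene. PolyA RNA was sequenced, and the labels give no culture of origin for any library, so that a p-value covers only the spread among these libraries, which may be technical.

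Methylation of cytosine in CpG dinucleotides is copied after replication by DNMT1, which UHRF1 brings to hemimethylated sites. DNMT3A and DNMT3B can methylate CpG sites that carry no mark on either strand. The TET proteins oxidize methylcytosine with 2-oxoglutarate as cosubstrate, and TDG excises the more oxidized forms so that base excision repair can restore cytosine. In blood cells DNMT3A and TET2 are recurrently mutated in human cancers, and TET2 and TET3 act in T cell development. The data are RNA levels, so they measure neither the proteins nor methylation itself, and a smaller number of expressing cells cannot be told apart from less RNA per cell.

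The labels were checked first. The MYC transgene averaged 2024, 24.8 and 3.29 CPM (counts relative to TMM-scaled library totals) at 0, 2 and 24 h, and mouse Myc had 1 count over all libraries. T cell markers summed to a median of 5868 CPM at 0 h and 10417 CPM at 24 h, and all 12 were tested. The sum of the 5 B cell markers reached at most 0.367 CPM and that of the 5 erythroid markers at most 0.0792 CPM. The 6 myeloid markers summed to 13.9 to 15.8 CPM at 0 h and 29.9 to 35 CPM at 24 h, with Lyz2 at 0 in every library. The 6 stromal markers summed to 56.5 to 59.8 CPM at 0 h and 119 to 142 CPM at 24 h, nearly all of it Pecam1, with Col3a1 and Cdh5 at 0 in every library. The part of these sums in the results was not tested. Total counts ranged from 25852711 to 27102318 per library, so that the deepest and the shallowest differed little.

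The library 24 h replicate 3 stood apart from the other 24 h libraries. A chi-square over genes, divided by its degrees of freedom, was 83.2 and 91.6 against them, whereas other replicate pairs gave 2.82 to 17. Ribosomal protein genes took 3.19% of its counts and 4.99% and 5.3% of the others. Its log2 ratio to the mean of the other 24 h libraries had a median of -0.18 in the shortest quintile of genes and 0.29 in the longest. Of the 8 enzymes, 7 were higher in this library than in the other 24 h libraries, by 1.95-fold for Tet3, 1.76-fold for Tet1, 1.53-fold for Dnmt1 and for Tet2, 1.38-fold for Dnmt3b, 1.34-fold for Dnmt3a and 1.18-fold for Uhrf1. Tdg was at 0.794 of their mean. The 4 enzymes with the largest lengths in the files (15457 to 16870 bases) are Tet1, Tet2, Tet3 and Dnmt3a. The 24 h log2 fold changes of the 8 enzymes and of the list genes named below are therefore given with and without this library, and its part in the results was not tested.

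**Figure D1:**
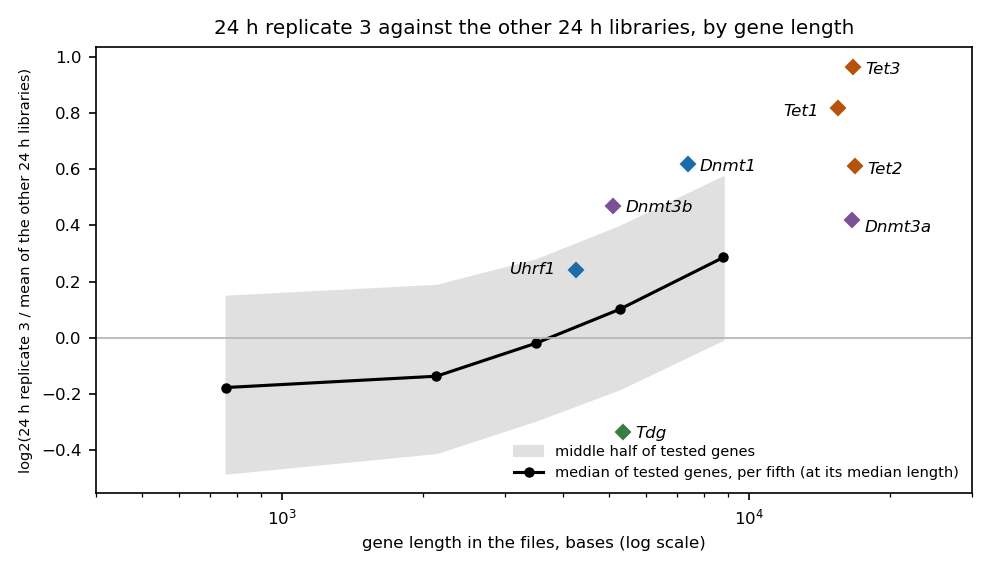
The y axis gives the log2 ratio of 24 h replicate 3 to the mean of the other 24 h libraries, and the x axis the gene length on a log scale. The line is the median of the tested genes in each quintile of length and the band is their interquartile range. Diamonds are the 8 enzymes, with Tet3 highest at 0.96 and Tdg lowest at -0.33.

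All 15 libraries entered 1 fit with edgeR's quasi-likelihood method, and a gene is called where its p-value adjusted over the 14485 genes tested (Benjamini-Hochberg) is under 0.01. All 8 enzymes passed the low-count filter and all 8 were called over the time course, where the share among tested genes was 74.2%. At 2 h against 0 h, 1 enzyme (Uhrf1) was called higher and none lower, beside 6.6% of tested genes higher and 8.59% lower. At an unadjusted p under 0.05 the lower count was also 0, and DESeq2 gave 0, beside 1900 of 14485 tested genes lower. The share of all genes at an unadjusted p under 0.05 is not given here or below. At 4 h, 1 was lower (Dnmt3b) and 0 higher, beside 19.9% lower and 18.1% higher among tested genes. DESeq2 called 3 lower and 0 higher at 4 h, beside 3276 of 14485 tested genes lower and 2633 higher. At the looser unadjusted p under 0.05 there were 4 lower and 0 higher. At 8 h, 4 were lower (Dnmt3b, Tet1, Tet3 and Tdg) and 1 higher (Tet2), beside 25.1% lower and 25.3% higher. At 24 h, 3 were higher (Dnmt3a, Uhrf1 and Tet2) and 2 lower (Dnmt3b and Tdg), beside 30.7% higher and 28.1% lower.

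Without 24 h replicate 3 the same 5 enzymes were called at 24 h, and Tet3 was called lower as a sixth. The counts lower than at 0 h then became 4 at 4 h, with Tet1, Tet3 and Tdg added, and 5 at 8 h, with Dnmt1 added. Among all tested genes in that fit, 24.8% were lower and 26.5% higher at 4 h, and 29.6% lower and 31.8% higher at 8 h. At 24 h, 30.7% were lower and 32% higher. The median log2 fold change of the 8 enzymes was -0.05, -0.07, -0.36 and 0.23 at 2, 4, 8 and 24 h, and -0.09 at 24 h without that library. Over all tested genes it was 0.01, 0.08, 0.09 and 0.07. With library totals in place of TMM that of all genes at 24 h was 0.35, and 6361 tested genes were higher and 2855 lower instead of 4443 and 4076, while 4 enzymes were higher and 2 lower.

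From 4 h to 8 h no enzyme was called by edgeR, beside 5.73% of tested genes called higher and 6.97% lower. DESeq2 called no enzyme either, beside 1123 of 14485 tested genes higher and 1386 lower. At the looser unadjusted p under 0.05, 3 enzymes were lower. The shares above are for the adjusted threshold and cannot be set beside that count. From 2 h to 4 h only Dnmt3b was called (lower), beside 7.72% higher and 13% lower among tested genes. From 8 h to 24 h, 6 enzymes were called higher (Dnmt1, Dnmt3a, Uhrf1, Tet1, Tet2 and Tet3), beside 20.8% of tested genes. None was called lower, beside 17.3%, although Tdg was lower at an unadjusted p under 0.05. DESeq2 gave 6 higher and 0 lower, beside 3276 of 14485 tested genes higher and 2767 lower. Beside 21.1% of tested genes higher and 17.9% lower, the same 6 were called higher without 24 h replicate 3. Without it Dnmt3a was called higher and Dnmt3b, Uhrf1 and Tet3 lower from 2 h to 4 h, beside 16.5% of tested genes higher and 19.8% lower. From 4 h to 8 h Dnmt1, Dnmt3b and Tdg were then called lower, beside 11.6% higher and 14.5% lower. When only the 8 h and 24 h libraries entered the fit, 0 of the 8 were called from 8 h to 24 h, beside 782 genes higher and 1151 lower of 14037 tested.

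**Figure D2:**
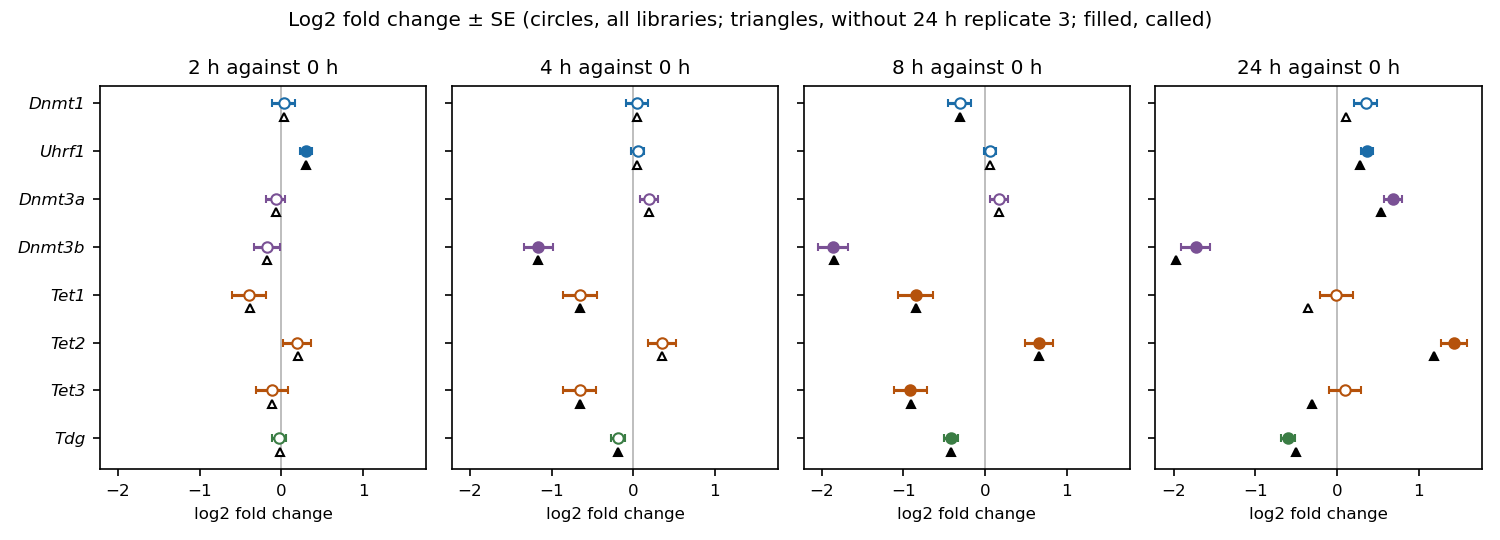
Each panel gives the log2 fold change of the 8 enzymes against 0 h (x axis), with circles and SE bars for all libraries and triangles for the fit without 24 h replicate 3; filled symbols were called at an adjusted p under 0.01. Tet2 lies farthest right at 24 h (1.43) and Dnmt3b farthest left (-1.73), and Tet3 moves from 0.10 to -0.30 at 24 h when the library is left out.

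Levels of different genes were compared per length, as TPM in the authors' tables, that is, counts divided by gene length and scaled to the same total in each library. The length used there joins all annotated exons of a gene, so that isoforms are not separated. At 0 h the order was Uhrf1 (244 TPM), Dnmt1 (151), Tdg (25.4), Tet3 (9.33), Dnmt3a (4.23), Dnmt3b (2.45), Tet1 (1.88) and Tet2 (1.12), each a mean of 3 libraries. The ranges of neighbours in this order did not overlap. At 2 h the order was the same, again without overlap. By 4 h Dnmt3b had become the lowest (1.07 TPM), where its range overlapped that of Tet1 (1.17), which in turn overlapped that of Tet2 (1.4). At 8 h Tet3 (5.08) and Dnmt3a (4.88) overlapped, and the Tet2 range (1.67 to 1.92) lay above that of Tet1 (0.86 to 1.31).

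**Figure D3:**
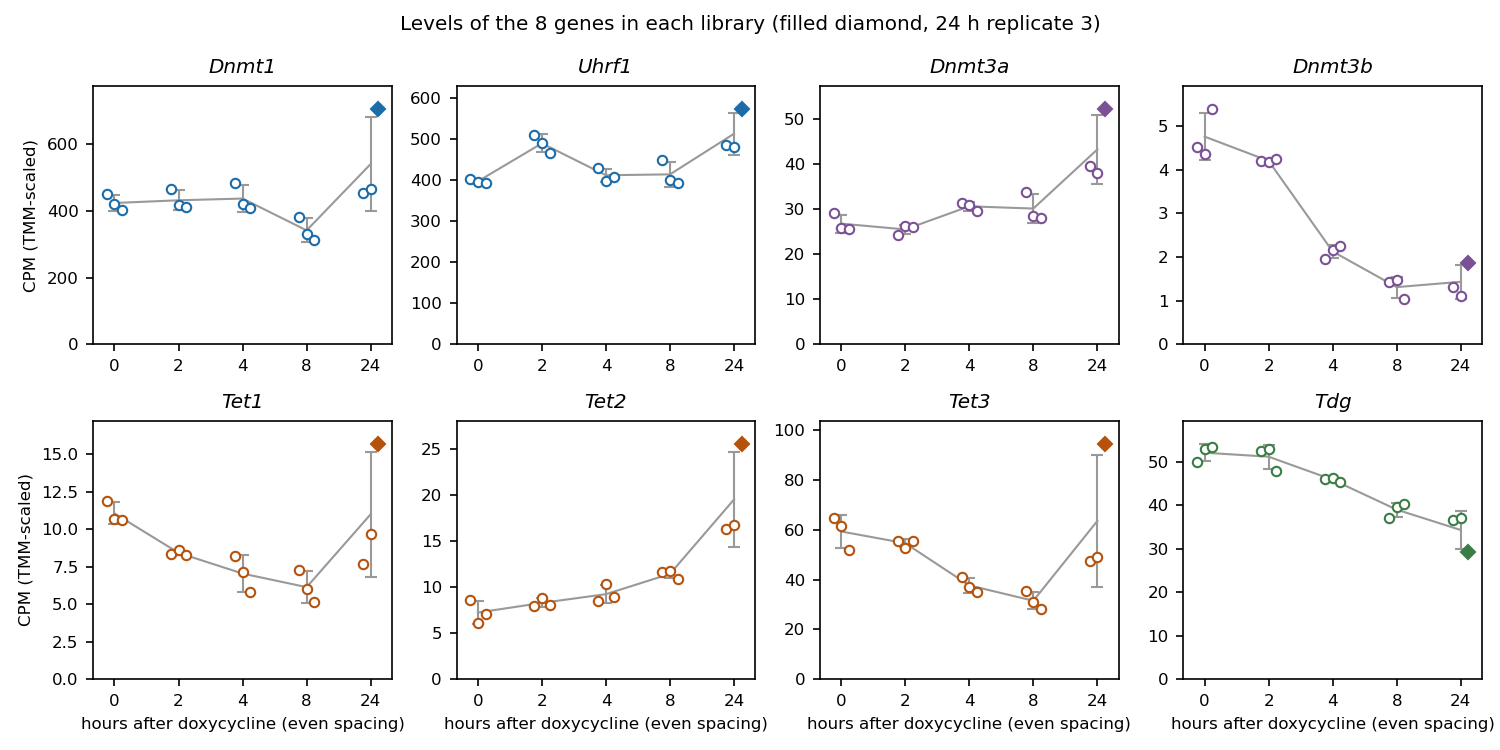
Each panel shows 1 enzyme, with TMM-scaled CPM from 0 on the y axis and hours after doxycycline, evenly spaced, on the x axis. Points are libraries, the grey line joins the means, bars are SD (n = 3) and the filled diamond is 24 h replicate 3, which is the highest 24 h point for every enzyme except Tdg. Dnmt3b falls from 4.76 to 1.31 CPM by 8 h, and Tet2 rises from 7.21 to 19.5 CPM by 24 h.

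The maintenance pair was the most abundant. Dnmt1 (chr9:20907209-20959888, minus strand, GRCm38), which copies methylation onto the new strand, had 450, 419 and 401 CPM at 0 h and 466, 418 and 410 at 2 h. At 4 h it had 483, 420 and 407 CPM, at 8 h 382, 330 and 312, and at 24 h 453, 464 and 704. Replicate 1 was the highest of its time point at 0, 2, 4 and 8 h, the 8 h libraries all lay below the 0 h libraries, and the 24 h libraries all lay above them. Its log2 fold changes of -0.31 ± 0.14 (SE) at 8 h and 0.35 ± 0.14 at 24 h did not pass (edgeR adjusted p = 0.0618 and 0.0338). Without 24 h replicate 3 the 8 h value stayed at -0.31 and passed (adjusted p = 0.0008), while the 24 h value was 0.12 (adjusted p = 0.209). The 24 h level also depended on the scaling, at 128% of the 0 h level in TMM-scaled CPM, 155% on library totals and 165% in TPM. Without replicate 3 the 24 h mean was 198 TPM, beside 151 TPM at 0 h. The 24 h rise was called in 5 of 24 alternative fits. From 8 h to 24 h Dnmt1 rose by 0.66 ± 0.14 on the log2 scale (adjusted p = 0.0011), or by 0.43 without that library.

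Uhrf1 (chr17:56303321-56323486, plus strand), which reads hemimethylated CpG and recruits DNMT1, was the only enzyme called at 2 h. It had 403, 395 and 393 CPM at 0 h and 510, 491 and 467 at 2 h, followed by 430, 399 and 406 at 4 h. At 8 h it had 449, 399 and 394 CPM, and at 24 h 485, 481 and 572. The 2 h and the 24 h libraries all lay above the 0 h libraries, while those of 4 and 8 h overlapped with them. Uhrf1 rose by 0.30 ± 0.08 and 0.37 ± 0.08 on the log2 scale at 2 and 24 h (edgeR adjusted p = 0.0081 and 0.00046), and by 0.29 at 24 h without replicate 3. The 2 h call held in 16 of 24 alternative fits, where its adjusted p went up to 0.0417.

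At 2 h, 11 of 26 DNA replication markers were also called higher and 0 lower, with a median log2 fold change of 0.29. The shares of tested genes were 6.6% higher and 8.59% lower. For mitosis markers the counts were 9 higher and 0 lower of 18, with a median of 0.40. The lower counts at 2 h were also 0 by DESeq2 and at an unadjusted p under 0.05. At 4 h, when Uhrf1 was at 0.05 on the log2 scale, 14 replication markers were higher and 2 lower (median 0.34). Mitosis markers were then 12 higher and 0 lower (median 0.53), beside 18.1% and 19.9% of tested genes. At 8 h, with Uhrf1 at 0.06, 10 replication markers were higher and 4 lower. Mitosis markers were 11 higher and 0 lower at 8 h (2 lower by DESeq2), beside 25.3% and 25.1%. DESeq2 called 4013 of 14485 tested genes lower at 8 h. The 8 h medians were 0.17 for replication and 0.44 for mitosis markers, beside 0.09 over all tested genes. From 4 h to 8 h, 6 replication markers were called lower and 0 higher (10 and 1 without 24 h replicate 3). Mitosis markers were 3 lower and 0 higher (6 and 1 without it), beside 6.97% of tested genes lower and 5.73% higher. The part of cell cycle phase in the Uhrf1 values was not tested. The TPM ratio of Uhrf1 to Dnmt1 averaged 1.63, 1.97, 1.64, 2.11 and 1.69 at 0, 2, 4, 8 and 24 h, with 1.41 in 24 h replicate 3. At 2 and at 8 h its 3 values all lay above those at 0 h, which gives the smallest p that an exact permutation test of 3 against 3 allows (0.1, two-sided), so that this test cannot reach 0.05.

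The 2 de novo methyltransferases moved apart. Dnmt3b (chr2:153649450-153687730, plus strand) had the largest fall of the 8. Its libraries had 4.53, 4.37 and 5.38 CPM at 0 h and 4.19, 4.17 and 4.25 CPM at 2 h, followed by 1.96, 2.17 and 2.26 CPM at 4 h. At 8 h they had 1.43, 1.46 and 1.04 CPM, and at 24 h 1.31, 1.12 and 1.87. At every later time all libraries lay below every 0 h library, although the 2 h difference (-0.18 ± 0.16 on the log2 scale) was not called. Its log2 fold changes were -1.16 ± 0.17, -1.86 ± 0.18 and -1.73 ± 0.18 at 4, 8 and 24 h (edgeR adjusted p = 4.5e-05, 3.4e-07 and 4.1e-07), and -1.97 at 24 h without replicate 3. At 8 h it stood at 27.5% ± 5 (SD, n = 3) of its 0 h level, and at 24 h at 30.1% (25.5% without replicate 3). These are the smallest counts among the 8 enzymes, 110 to 136 per library at 0 h and 27 to 39 at 8 h, and each fall was called in all 24 alternative fits. From 2 h to 4 h alone the difference was -0.98 ± 0.17 on the log2 scale (adjusted p = 0.00048).

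Dnmt3a (chr12:3806007-3914443, plus strand) ranged over its libraries of 0, 2, 4, 8 and 24 h from 25.6 to 29.1, 24.4 to 26.2, 29.6 to 31.4, 28.1 to 33.8 and 38.2 to 52.2 CPM. All 4 h and all 24 h libraries lay above those at 0 h, and the 8 h libraries overlapped with them. The gene rose by 0.69 ± 0.11 on the log2 scale at 24 h (edgeR adjusted p = 4.2e-05; 0.54 without replicate 3) and was called then in all 24 alternatives. The 4 h difference of 0.19 ± 0.11 (edgeR adjusted p = 0.158) did not pass. Relative to their own sum in TPM, Dnmt3b made up 36.7% ± 3.63 (SD, n = 3) at 0 h and then 35%, 18.5%, 12.4% and 9.64% at 2, 4, 8 and 24 h. The ratio of Dnmt3a to Dnmt3b thus went from 1.75 ± 0.262 to 9.44 ± 0.982, with 8.56 in 24 h replicate 3, and its values did not overlap with those at 0 h from 4 h on (exact permutation p = 0.1, the smallest possible).

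**Figure D4:**
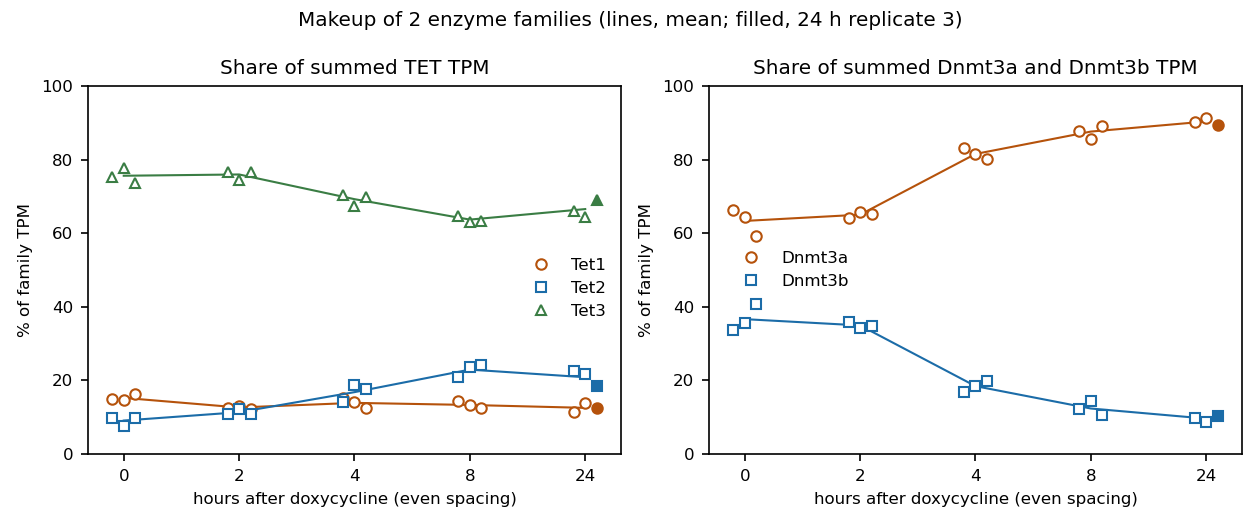
The y axes give the percent of the summed TPM of the TET genes (left) and of Dnmt3a and Dnmt3b (right), and the x axes hours after doxycycline, evenly spaced. Points are libraries, lines are means and filled points are 24 h replicate 3. Tet3 holds 75.6% of TET TPM at 0 h and 63.7% at 8 h, and Dnmt3b goes from 36.7% to 9.64% of the right-hand sum.

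The 3 TET genes followed different courses. Tet3 (chr6:83362373-83459084, minus strand), the most abundant of them, had 64.8, 61.5 and 51.8 CPM at 0 h and 55.6, 52.7 and 55.6 at 2 h. It then had 41.1, 37 and 34.9 CPM at 4 h and 35.3, 30.9 and 28.3 at 8 h, followed by 47.4, 49 and 94.4 at 24 h. All 4 h and 8 h libraries were below the 0 h range, and at 24 h replicate 3 lay above it while the others lay below. Log2 fold changes of Tet3 were -0.66 ± 0.20, -0.91 ± 0.20 and 0.10 ± 0.20 at 4, 8 and 24 h (edgeR adjusted p = 0.0119, 0.00096 and 0.661), so that only the 8 h fall passed. Without 24 h replicate 3 the 24 h value was -0.30 (adjusted p = 0.00605), so that its sign and its call rest on that library. Tet3 rose from 8 h to 24 h by 1.01 ± 0.20 on the log2 scale, or by 0.61 without the library, and both passed.

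Tet2 (chr3:133463679-133545139, minus strand), which lacks the CXXC domain that Tet1 and Tet3 carry, had 8.55, 6.04 and 7.05 CPM at 0 h and 7.93, 8.81 and 8.04 at 2 h. It had 8.41, 10.3 and 8.87 CPM at 4 h, then 11.6, 11.7 and 10.9 at 8 h, and finally 16.3, 16.7 and 25.5 at 24 h. The 8 h and 24 h libraries lay above every 0 h library. Tet2 rose by 0.66 ± 0.17 and 1.43 ± 0.16 on the log2 scale at 8 and 24 h (edgeR adjusted p = 0.0028 and 1.2e-06), and by 1.19 at 24 h without replicate 3. It was the only enzyme called higher at both 8 h and 24 h, whereas Dnmt3b and Tdg were called lower at both times.

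Tet1 (chr10:62804570-62908996, minus strand) ranged over its libraries of 0, 2, 4, 8 and 24 h from 10.6 to 11.9, 8.31 to 8.62, 5.78 to 8.22, 5.14 to 7.26 and 7.67 to 15.7 CPM. The libraries of 2, 4 and 8 h all lay below those of 0 h, and with all libraries only the 8 h difference was called (-0.85 ± 0.21, edgeR adjusted p = 0.0027). At 24 h the log2 fold change was -0.01 ± 0.20 (adjusted p = 0.977). Without replicate 3 it was -0.35 (adjusted p = 0.0285), and with library totals in place of TMM it was 0.27, so that no direction is given. The rise of Tet1 from 8 h to 24 h, 0.84 ± 0.21, was called with the library and, at 0.50, without it.

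Within the summed TET TPM, Tet2 went from 9.11% ± 1.33 (SD, n = 3) at 0 h to 23% ± 1.7 at 8 h and 20.9% ± 2.13 at 24 h. Tet3 went from 75.6% to 63.7% and 66.6%, and Tet1 from 15.3% to 13.3% and 12.6%. The 24 h replicate 3, where the summed TET TPM was 30.1, gave a Tet2 share of 18.5%, which was still above the 0 h range of 7.57% to 9.93%. The ratio of Tet2 to Tet1 was 0.595 ± 0.0701 at 0 h and 1.67 ± 0.244 at 24 h (exact permutation p = 0.1, the smallest possible), with 1.49 in that library.

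Tdg (chr10:82629828-82650799, plus strand), which removes thymine and oxidized methylcytosine opposite guanine, declined up to 8 h. It had 49.9, 53 and 53.5 CPM at 0 h and 52.6, 53.1 and 48 at 2 h, then 46.1, 46.3 and 45.4 at 4 h. At 8 h it had 37.2, 39.6 and 40.3 CPM, and at 24 h 36.7, 37.2 and 29.2. From 4 h on all libraries lay below the 0 h range. Tdg had log2 fold changes of -0.42 ± 0.08 and -0.60 ± 0.08 at 8 and 24 h (edgeR adjusted p = 0.00048 and 1.1e-05), and of -0.50 at 24 h without replicate 3. At 24 h it stood at 65.8% of the 0 h level in TMM-scaled CPM (70.8% without replicate 3) but at 83.5% in TPM, where each 24 h library (20 to 22 TPM) still lay below each 0 h library (24.8 to 26 TPM). At 8 h it stood at 74.9% in TMM-scaled CPM and 76.6% in TPM, so that the direction after 8 h depended on the scaling. From 8 h to 24 h its log2 fold change of -0.18 ± 0.08 was not called (edgeR adjusted p = 0.0774), and without replicate 3 it was -0.08.

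Other transcripts that share sequence or position with the enzymes had few counts. Glt8d2 overlaps Tdg on the other strand and had 354 counts over 15 libraries beside 17676 for Tdg, and the processed copy Tdg-ps had 40. Dnmt3a-ps1 had 0 counts, Dnmt3c, a close copy of Dnmt3b, had 2, and the antisense genes Dnmt3aos and Dnmt3bos had 1 each. Whether the counting used strand is not stated in the labels or the study's text, so that reads of overlapping genes on opposite strands may not have been told apart.

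Promoter sequence is shown for the enzymes called lower at both 8 and 24 h (Dnmt3b and Tdg) and for the 1 called at 2 h (Uhrf1). The stretches lie upstream of RefSeq start sites on GRCm38.p6, in annotated non-exonic sequence, and capitals mark a motif. They come from a table of 32851 promoter windows of equal length around starts, in which 13 windows belong to the 8 enzymes. The motifs searched on both strands were CACGTG, the E-box that MYC and MAX bind as a pair, and the E2F-type sites TTTCCCGC, TTTGGCGC and TTTCGCGC, of a kind common upstream of replication genes.
Tdg, chr10:82629588-82629827, plus strand: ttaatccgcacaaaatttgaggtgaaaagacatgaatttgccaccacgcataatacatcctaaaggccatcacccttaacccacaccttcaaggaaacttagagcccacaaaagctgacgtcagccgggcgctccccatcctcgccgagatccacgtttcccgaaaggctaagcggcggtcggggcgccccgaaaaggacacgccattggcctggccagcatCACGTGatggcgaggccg
Uhrf1, chr17:56304063-56304312, plus strand: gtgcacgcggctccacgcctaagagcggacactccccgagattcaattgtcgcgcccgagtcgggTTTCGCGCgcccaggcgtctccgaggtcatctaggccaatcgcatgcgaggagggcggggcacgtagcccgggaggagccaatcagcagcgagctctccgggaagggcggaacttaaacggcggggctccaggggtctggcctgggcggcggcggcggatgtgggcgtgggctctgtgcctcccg
Dnmt3b, chr2:153649199-153649448, plus strand: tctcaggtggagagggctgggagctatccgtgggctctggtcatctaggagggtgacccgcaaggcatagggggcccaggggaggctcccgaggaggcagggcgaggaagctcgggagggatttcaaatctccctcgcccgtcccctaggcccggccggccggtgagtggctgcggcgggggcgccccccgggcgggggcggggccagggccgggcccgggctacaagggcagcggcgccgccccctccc
CACGTG stood 28 bases upstream of the Tdg start and in 7.15% of all windows. Another copy stood 80 bases upstream of 1 of the 3 Dnmt3a starts. TTTCGCGC stood 185 bases upstream of this Uhrf1 start and 219 bases upstream of 1 of the 3 Dnmt1 starts, and in 0.323% of all windows. The third Dnmt1 window also held TTTGGCGC, from base 34 counted from its start, a motif in 0.514% of windows. The Dnmt3b window, the other Uhrf1 window and the other windows of Dnmt1 and Dnmt3a held none of the 4 motifs. A match describes these letters only, and binding was not measured.

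The genes around the 8 enzymes were taken from lists of their partners. Each count below is read beside the share of all tested genes at the same time. At 4 h that share was 18.1% higher and 19.9% lower. At 24 h it was 30.7% higher and 28.1% lower, or 32% and 30.7% without 24 h replicate 3. DESeq2 called 4351 of 14485 tested genes higher and 4434 lower at 24 h. Of 14 tested partners of maintenance and recruitment, 5 were called higher and 8 lower at 4 h, and 5 higher and 6 lower at 24 h (4 and 8 without replicate 3). Pcna, the replication clamp, rose by 0.93 ± 0.14 on the log2 scale at 24 h (1.12 without replicate 3). Uhrf2, the paralog of Uhrf1, rose by 0.52 ± 0.07 (0.55 without that library). Cdca7l, a relative of the HELLS activator Cdca7, fell by 1.70 ± 0.08 at 4 h and was at -0.79 at 24 h (-0.83 without it). Trim28, the corepressor that brings SETDB1 to KRAB zinc finger sites, was at -0.78 ± 0.08 at 24 h (-0.86 without it).

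The list labelled methyl-CpG readers holds 10 genes. It includes Mbd3, Mbd5 and Mbd6 by their MBD domain, and not for known binding to methylated CpG. Of these 10 genes, 6 were called higher and 1 lower at 24 h (7 and 1 without replicate 3). Their median log2 fold change was 0.64 (0.47 without it). Mbd4, a glycosylase that acts on the same mismatches as TDG, went from 40.8 to 103 CPM and rose by 1.34 ± 0.07 (1.35 without that library). Mbd3, a subunit of the NuRD complex, was lower (-1.21 ± 0.06, and -1.23 without it). Mbd6 rose by 1.95 ± 0.29 (1.34 without replicate 3), and Zbtb4 by 2.50 ± 0.36 from a mean of 0.446 CPM (2.23 without replicate 3). Of 7 tested CXXC proteins, which bind unmethylated CpG, 3 were called higher and 0 lower by edgeR at 24 h, while DESeq2 and an unadjusted p under 0.05 each gave 1 lower. Those higher were Kmt2a (1.16 ± 0.22, and 0.70 without replicate 3), Kmt2b (0.88 ± 0.21, and 0.45) and Kdm2a (0.48 ± 0.14, and 0.23). Kdm2b, which recruits a Polycomb complex, was the only one called at 4 h (-0.58 ± 0.09), and without replicate 3 it was also called lower at 24 h (-0.35).

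Of 20 tested genes of base excision repair and of TET partners, 8 were called higher and 7 lower at 24 h (8 and 8 without replicate 3). The shares among all tested genes were 30.7% and 28.1%. Apex1, the endonuclease that cuts the abasic site a glycosylase leaves, went from 286 to 45.2 CPM with a log2 fold change of -2.66 ± 0.08 (-2.59 without replicate 3). Parp1, a sensor of strand breaks, was also lower (-1.44 ± 0.06, and -1.48 without it). Neil3, a glycosylase, rose by 1.46 ± 0.10 (1.30 without it), and Gadd45b, a stress-induced gene, by 2.01 ± 0.24 (2.13 without it). Ung, the uracil glycosylase (-1.37 ± 0.07), and Lig3, a ligase of this pathway (-1.14 ± 0.06), were among those already called lower at 4 h.

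Most tested genes of the lists on the S-adenosylmethionine cycle and on 2-oxoglutarate metabolism were called lower at 24 h. The second list also holds genes of 2-hydroxyglutarate removal, and metabolites were not measured. In the S-adenosylmethionine cycle 6 of 8 tested genes were called lower and 0 higher at 24 h, with a median of -0.55, and the counts were the same without replicate 3. At an unadjusted p under 0.05 no gene of the cycle was higher either, and DESeq2 gave 0. Mat2a, which makes S-adenosylmethionine, fell by 1.93 ± 0.07 at 4 h and was at -1.10 at 24 h (-1.05 without replicate 3). Ahcy, which hydrolyses the S-adenosylhomocysteine that methyltransferases release, was at -1.62 ± 0.11 at 24 h (-1.45 without it). Of 13 genes of a list on 2-oxoglutarate metabolism, 11 were lower and 1 higher at 24 h (12 and 1 without replicate 3). Those lower included Phgdh (-2.60 ± 0.12), Got2 (-2.12 ± 0.07) and Idh3a (-1.47 ± 0.09), at -2.44, -2.14 and -1.36 without that library. The gene that rose was Idh1 (1.18 ± 0.14, and 1.37 without it), the cytosolic isocitrate dehydrogenase, which was also higher at 2 h (1.03 ± 0.14).

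**Figure D5:**
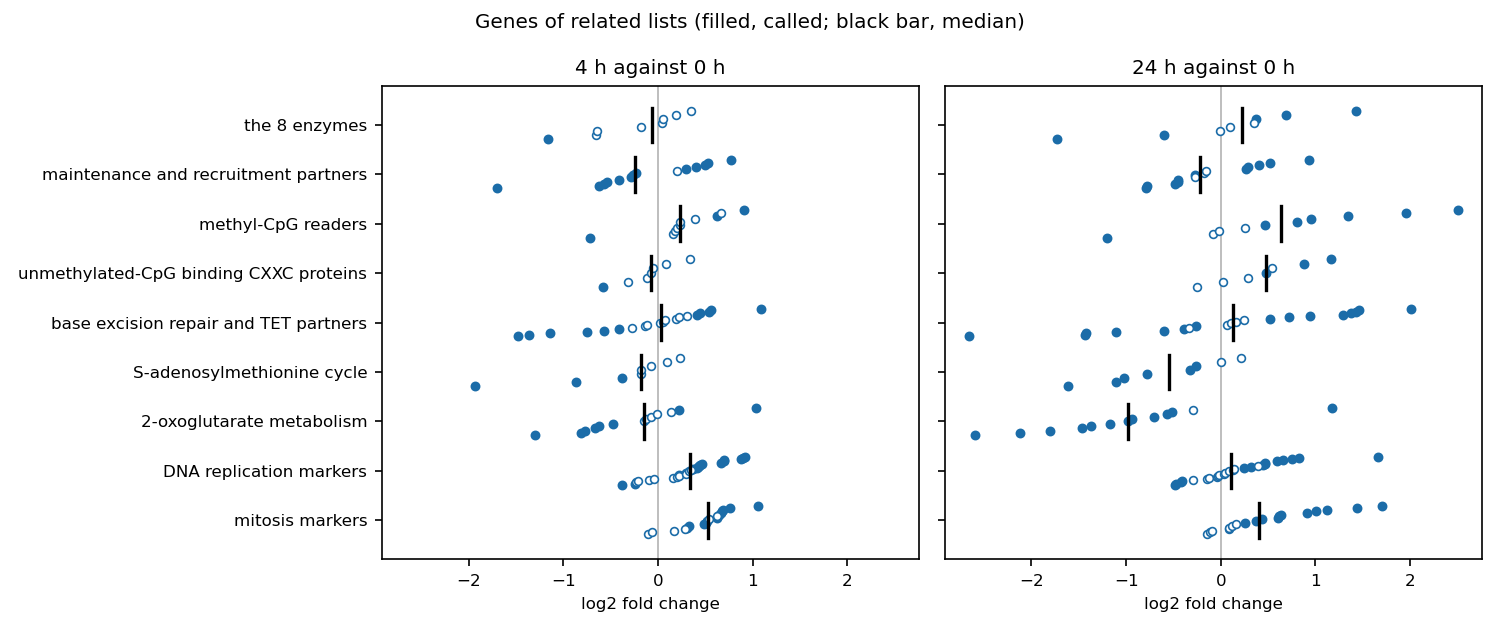
Each point is a tested gene of a list (rows) and its log2 fold change against 0 h (x axis) at 4 h (left) and 24 h (right), filled where called, and the black bar is the list's median. The S-adenosylmethionine and 2-oxoglutarate lists have medians of -0.55 and -0.98 at 24 h, and the list labelled methyl-CpG readers 0.64.

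The genes whose 4 log2 fold changes against 0 h were closest to those of an enzyme were found among 8830 genes with at least 10 CPM on average, by the root mean square difference. They were Zfp35, Snw1 and Dpp3 for Tdg (differences of 0.0228 to 0.0281), Tfeb, Ssh2 and Sirt6 for Dnmt3a, and Rsf1, Spidr and Ttc17 for Uhrf1. For Tet2 they were Trbc2, Trbv31 and Ppp6r2 (0.0398 to 0.0784), of which Trbc2 and Trbv31 belong to the T cell receptor beta locus. For Dnmt3b they were Pfas, Ifi30 and Trmt6 (0.0941 to 0.127), and for Tet3 Rrbp1, Scaf4 and Dot1l. For Tet1 they were Scrib, 4930579G18Rik and Pgs1, and for Dnmt1 Gm26770, Trrap and Lmtk2. All 4 differences share the same 0 h libraries and are given as a description.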

How the data were processed

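For each of 15 libraries the authors deposited raw counts per gene, counts per kilobase, FPKM, TPM and a rank fraction (0 to 1). The tools listed in the submitters' processing notes are cutadapt 1.16, STAR 2.5.4b and featureCounts, with the build mm10. Annotation release and strand setting are not given there. The deposited counts entered the tests, and the deposited TPM served only to compare levels between genes. The deposited per-kilobase counts, FPKM and rank fractions were not used. Total counts of 25852711 to 27102318 set the depth.

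Counts were filtered with filterByExpr (14485 genes), scaled by TMM and fitted in edgeR 4.0.16 (R 4.3.3) with all 15 libraries and a mean for each time. The fit was tested on simulated counts for the 0 h and 24 h libraries only. It called 18 of 67 genes changed 1.5-fold, 56 of 67 changed 2-fold and 66 of 66 changed 4-fold. Of 13509 unchanged genes it called 2. Changes of 1.5-fold were thus mostly missed there. The spread was set in advance and fewer libraries were used, so that these shares need not hold for the main fit. Alternatives were 3 other scalings, 2 other filters, DESeq2 1.42.0, a replicate block, fits of only the times compared, a threshold of 0.05 and leaving out each library. List counts without 24 h replicate 3 were added after seeing the data. The enzymes and lists were chosen with earlier results of these data known. The text names every enzyme, some called genes of the partner lists (at most 4 per list and time), and the 3 genes closest to each enzyme. The list genes named are not always those with the largest change. Not every gene covered is reported. Gene positions and promoters are from GRCm38 annotations.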

Additional observations from a re-analysis of the deposited data

How the results depend on the processing

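The counts of called enzymes at 8 h and 24 h against 0 h stayed within 1.5-fold of 5 under every alternative, and those at 2 h and 4 h did not. RLE size factors gave 0 at 2 h and 2 at 4 h, beside 2318 and 5353 of 14485 tested genes called. The main fit called 2200 and 5512 of them at these times, 3000 from 2 h to 4 h and 1840 from 4 h to 8 h. No low-count filter gave 3 at 4 h, 2 from 2 h to 4 h and 1 from 4 h to 8 h. Of all 26532 genes it called 5867, 3420 and 2086. At least 10 counts in every library gave 2 at 4 h and 2 from 2 h to 4 h, beside 5204 and 3066 of 12244 genes. DESeq2 gave 3 at 4 h and 2 from 2 h to 4 h, beside 5909 and 3760 of 14485 genes. An adjusted p under 0.05 gave 3, 3 and 1 at 4 h, from 2 h to 4 h and from 4 h to 8 h. Of all 14485 genes 7346, 4773 and 3257 were under it. Fits of only the time points compared, which hold fewer libraries, gave 2 at 2 h, 4 at 4 h, 4 from 2 h to 4 h and 0 from 8 h to 24 h. Among all genes these fits called 5226 of 13316, 7034 of 13420, 4963 of 13456 and 1933 of 14037. Leaving out 1 library gave 0 to 1 at 2 h, 1 to 4 at 4 h, 4 to 6 at 8 h, 5 to 6 at 24 h, 1 to 4 from 2 h to 4 h, 0 to 3 from 4 h to 8 h, 4 to 6 from 8 h to 24 h and 6 to 8 over the time course. Over these fits the genes called ranged from 1422 to 3911 at 2 h and from 4345 to 7517 at 4 h. Leaving out any single library of 0 h or 2 h ended the Uhrf1 call at 2 h. Leaving out 24 h replicate 3 gave the 4 at 4 h and the 3 from 4 h to 8 h, beside 7517 and 3824 of 14670 genes. The cause of these moves was not tested. Library totals gave 1173 genes higher and 968 lower at 2 h instead of 956 and 1244, and upper-quartile factors gave 3581 and 2419 at 4 h instead of 2629 and 2883, and 4944 and 2847 at 8 h instead of 3665 and 3634.

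Some log2 fold changes turned sign outside the leave-one-out fits. Dnmt1 at 2 h was -0.016 with RLE and -0.016 with DESeq2, and Tdg at 2 h 0.020 (library totals) and 0.011 (upper-quartile factors). Tet1 at 24 h was 0.27 (library totals), 0.13 (upper-quartile factors) and 0.014 (at least 10 counts), and Dnmt3a from 4 h to 8 h was 0.040, 0.035 and 0.0032 in the same order. Uhrf1 from 4 h to 8 h was -0.010 with no filter, and Dnmt1 from 2 h to 4 h -0.021 with at least 10 counts. With 1 library left out, Dnmt1 ranged from -0.032 to 0.072 at 2 h, -0.073 to 0.088 at 4 h and -0.11 to 0.075 from 2 h to 4 h, and Tdg from -0.057 to 0.026 at 2 h. Uhrf1 ranged from -0.019 to 0.062 at 4 h, -0.044 to 0.069 at 8 h and -0.056 to 0.038 from 4 h to 8 h, and Dnmt3a from -0.12 to 0.021 from 4 h to 8 h. Tet1 ranged from -0.35 to 0.19 and Tet3 from -0.30 to 0.27 at 24 h, and Dnmt3b from -0.11 to 0.28 from 8 h to 24 h.

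Over all 15 libraries no clear pairing by replicate number was seen. The correlation of deviations over the 30 same-numbered pairs ran from -0.60 to 0.54 (median 0.04), and 5 of 15 libraries matched their own number best. The 24 h replicate 3 entered these values, and pairing among the libraries of 0 to 8 h alone was not tested. With the number as a replicate block 0 enzymes were called at 2 h and 6 over the time course, beside 1892 and 10232 of 14485 genes. The other counts of called enzymes did not change. Dnmt3b, with 27 to 39 counts per library at 8 h, has the least precision, and intervals for such counts would cover counting error only.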

Other observations

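Few transcripts of a list of imprinted and germline genes were high enough to be tested. Of its 13 genes, only Mest and Sycp3 passed the low-count filter, so that H19, Ddx4, Tex101 and Mael were among those not tested. The part of DNA methylation in these levels was not tested. Mest, an imprinted gene, had a mean of 1.28 CPM at 0 h and 1.78 CPM at 24 h (0.48 ± 0.24 on the log2 scale, edgeR adjusted p = 0.0897), and 0.51 without 24 h replicate 3 (adjusted p = 0.0879). Sycp3, a component of the meiotic synaptonemal complex, had 1.56 CPM at 0 h, 2.50 CPM at 8 h and 0.83 CPM at 24 h. Its fall at 24 h (-0.91 ± 0.28, adjusted p = 0.0099) did not pass without 24 h replicate 3 (-0.70, adjusted p = 0.0366). Igf2, Peg3, Peg10, Snrpn, Meg3, Plagl1 and Dazl were at 0 counts in every library, which allows up to 0.116 CPM of a library total, for counting error only.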
